A study of Mus musculus with 4 samples.

Results

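The Wapal-binding sites described here were those in gene deserts, taken here as the stretches of the mouse genome outside genes and far from any transcription start. A site was a region of the FB Wapal list that shared no base with a region of the BirA list. A site was counted as a desert site when its centre lay in no annotated gene body and more than 100 kb from the transcription start site (TSS) of every annotated transcript. Of 8323 sites, 726 lay more than 100 kb from a TSS, and 200 of these were inside long genes. The other 526 were the desert sites, or 6.32% of all sites (95% Wilson interval 5.82 to 6.86%).

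The sites came from biotin-mediated ChIP-seq in mouse embryonic stem cells (ESCs). The libraries were 2 independently derived ESC clones that stably express Wapal with a Flag and biotin tag together with the ligase BirA (FB Wapal), 1 control line with BirA and no tagged Wapal, and 1 input of sheared genomic DNA, which the labels assign to the cells engineered to express tagged Wapal. The methods describe the ESCs as derived from 129SVJ mice, no treatment or time is given for these groups, and tagged Wapal is present beside the cells' own protein. Regions of both clones were deposited as 1 joined list with no read counts, so no spread between replicates could be computed, and every comparison below is a description of these lists without a test.

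Cohesin is a ring-shaped complex that holds DNA strands together and shapes chromatin loops, and Wapal is the factor that releases cohesin from DNA. CTCF is a zinc finger protein that binds a long, oriented DNA motif and halts cohesin along the chromosome, so that many cohesin-bound positions carry this motif. Gene deserts are poor in promoters but often hold distal enhancers and boundaries of chromatin domains, and they frequently flank genes for developmental regulators and cell adhesion proteins.

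The sequences shown here are the matches to the CTCF core motif in the 10 desert sites of the highest score. The motif was searched on both strands. All 10 held it with at most 1 mismatch, and 6 held it with none. Over all 526 desert sites these shares were lower, at 71.9% and 26.0%. Each line gives the flanking protein-coding genes and the mm9 position of the sequence, which is written 5′ to 3′ on the strand of the motif with the 12 bases of the core in capitals and 9 bases on either side.
Snx10 and Skap2, chr6:51808058-51808087, minus strand, no mismatch: cctaagtggCCAGCAGATGGCagcagcttg
Car2 and Gm9733, chr3:15194555-15194584, minus strand, no mismatch: cacatgttgCCACCAGATGGCgaggcagtt
Sntb1 and Has2, chr15:56168190-56168219, plus strand, 1 mismatch: acatggtgaCCACCAGAGGGAgcccctgga
Gad1-ps and Csl, chr10:99078642-99078671, minus strand, no mismatch: cagggtaggCCACTAGGTGGCagagtagag
Atp6v1h and Oprk1, chr1:5173756-5173785, plus strand, 1 mismatch: tacacactcCCACTAGGTGACagcattgta
Tox3 and Chd9, chr8:93232596-93232625, minus strand, no mismatch: tggaatctaCCAGCAGATGGCgctgtgagc
Olfm4 and Pcdh17, chr14:80616251-80616280, minus strand, no mismatch: acaactttcCCACCAGGTGGCgcctgatcc
Gm6576 and Ank, chr15:27164689-27164718, minus strand, 1 mismatch: cggaaacagCCACAAGATGGCagtgcttct
4931429L15Rik and Cadm1, chr9:46543809-46543838, plus strand, no mismatch: atggcctttCCACCAGGTGGCaggcttgct
Asap1 and Adcy8, chr15:64518937-64518966, plus strand, 1 mismatch: ccagtgctaCCACAAGATGGCagcaaagga
These matches describe the sequence under the sites and do not show which protein was bound there. Their share among all desert sites is given with the motif results.

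The desert site of the highest score (chr6:51807477-51808289) lay 155 kb from the nearest TSS, between Snx10, which encodes a sorting nexin, and Skap2, which encodes an adaptor of Src family kinases. Its MACS score was 637, the second highest of all 8323 sites. The score is the negative log10 of the region's p-value against input multiplied by 10, and no region in the list was under 50. The centre of this site was only 1.28 kb from the 3′ end of Skap2, a long gene that reads towards the site, so it was far from promoters but not far from a gene. The next desert site (chr3:15194099-15194973) had a score of 393 and lay 102 kb from Gm9733 and 294 kb from Car2, the gene of a carbonic anhydrase.

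The third (chr15:56167900-56168647) had a score of 304 and stood deepest in its desert among the 10, at 353 kb from a TSS, between Sntb1, which encodes a syntrophin, and Has2, which encodes a hyaluronan synthase. The fourth (chr10:99078196-99079074) had a score of 277 and lay between Gad1-ps and the citrate synthase-like gene Csl. The fifth (chr1:5173203-5174220) had a score of 272 and lay 21.1 kb from the end of the proton pump gene Atp6v1h, with the kappa opioid receptor gene Oprk1 405 kb to the other side. The sites between Tox3, a gene of an HMG-box protein, and the chromatin remodeller gene Chd9 (chr8:93232143-93233061) and between Olfm4 and the protocadherin gene Pcdh17 (chr14:80615559-80616408) had scores of 268 and 265. The site 232 kb from Ank, whose product exports pyrophosphate (chr15:27164307-27165160), had a score of 261. The ninth (chr9:46543361-46544474), with a score of 252, lay 794 kb from the cell adhesion gene Cadm1. The tenth (chr15:64518520-64519325), with a score of 243, lay 11.7 kb from the adenylyl cyclase gene Adcy8.

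The highest scores were therefore spread over 8 chromosomes, beside genes of varied function that included the adhesion genes Pcdh17 and Cadm1. Of the 500 highest scores among all sites, 27 belonged to desert sites, or 5.40% (95% Wilson interval 3.74 to 7.74%), beside the 6.32% of all sites that were in deserts.

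Scores of desert sites were close to those elsewhere. Their median score was 80.98 (95% order-statistic interval 77.1 to 84.1, n = 526), and that of the other 7797 sites was 81.38 (80.5 to 82.5). A score of at least 100 was reached by 34.6% of desert sites (30.7 to 38.8%) and 34.6% of the others. Among the others the share was 36.7% outside gene bodies at 20 to 100 kb from a TSS (34.6 to 39.0%). It was 36.9% outside gene bodies within 20 kb (35.0 to 38.9%) and 31.8% in gene bodies (30.3 to 33.4%). Within deserts, the score did not follow the distance from a TSS, with a Spearman's rho of -0.0066 across 526 sites of the same list. The median was 78.0 at 100 to 150 kb from a TSS (n = 229), 79.5 at 150 to 200 kb (n = 116), 88.2 at 200 to 300 kb (n = 95), 76.6 at 300 to 500 kb (n = 72) and 77.7 beyond 500 kb (n = 14). The intervals of these medians overlapped one another.

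**Figure D1:**
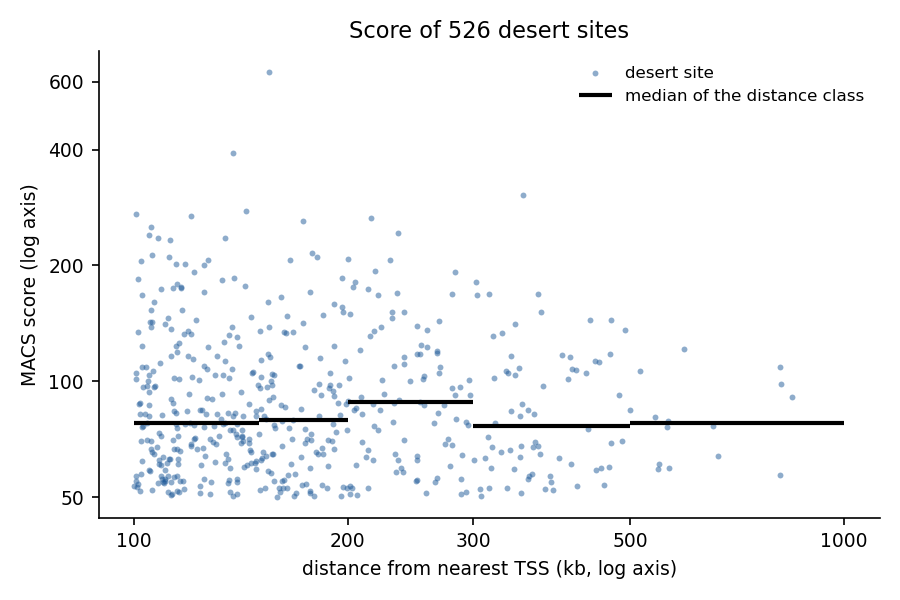
MACS score (log axis) of each of the 526 desert sites against the distance of its centre from the nearest TSS in kb (log axis), with black lines at the median of each distance class. The medians lie between 76.6 and 88.2 in all 5 classes, while the number of sites thins out with distance.

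Desert sites were slightly narrower and lower in GC than the others. Their median width was 741 bp (726 to 752), against 817 bp (813 to 821), and their median GC content was 42.2% (41.7 to 42.6%), against 44.5% (44.4 to 44.6%). The desert sequence around them was lower still. Regions of the same width 5 kb to either side of the desert sites had a median GC content of 41.2% (40.8 to 41.6%, n = 1052), and sequenced desert as a whole had a GC content of 39.1%. The observed to expected ratio of CpG dinucleotides had a median of 0.223 in desert sites (0.205 to 0.238) and 0.150 in these flanking regions (0.144 to 0.160). The widest desert site (chr8:80620062-80624162) spanned 4101 bp between the endothelin receptor gene Ednra and Ttc29 with a score of 119. The next (chr5:64896362-64898157) spanned 1796 bp between Tbc1d1 and Klf3, which encodes a Krüppel-like repressor, with a score of 71.7.

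The deserts were large and sparsely occupied. Sequenced desert covered 462 Mb, or 18.04% of the sequenced genome, and held 1.14 sites per Mb (95% exact Poisson interval 1.04 to 1.24). The rest of the genome held 3.72 sites per Mb (3.64 to 3.80). Outside gene bodies, the density fell at each step away from a TSS. It was 5.14 sites per Mb within 20 kb, 3.79 at 20 to 50 kb, 2.57 at 50 to 100 kb and 1.60 at 100 to 150 kb. Farther out it was 1.29 at 150 to 200 kb, 0.934 at 200 to 300 kb, 0.836 at 300 to 500 kb and 0.340 beyond 500 kb (0.186 to 0.571). Gene bodies held 3.34 sites per Mb (3.23 to 3.46), fewer than the sequence within 20 kb of a TSS outside them. These intervals cover counting error only. Sequence in which reads do not align uniquely was not removed from these lengths.

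Outside gene bodies, the CTCF core motif also became rarer away from a TSS. Exact matches numbered 2.09 per Mb in deserts and 5.61 per Mb elsewhere. Within deserts they went from 2.71 per Mb at 100 to 150 kb to 1.24 per Mb beyond 500 kb. In deserts 138 of 963 exact matches were in a site, or 14.3% (12.3 to 16.7%). This share was 16.2% in gene bodies (15.3 to 17.2%), an interval that overlapped that of deserts, 21.7% within 20 kb of a TSS (20.3 to 23.1%), 25.4% at 20 to 50 kb (23.2 to 27.7%) and 20.8% at 50 to 100 kb (18.3 to 23.6%). Within deserts it was 17.3% at 100 to 150 kb (13.9 to 21.4%), 16.2% at 150 to 200 kb, 9.74% at 200 to 300 kb and 12.0% at 300 to 500 kb. Beyond 500 kb it was 7.84% (3.09 to 18.5%), where it rested on 4 of 51 matches. The GC content of desert sequence fell from 39.9% at 100 to 150 kb to 37.3% beyond 500 kb. GC content was highest in gene bodies, at 43.0%, and was 41.5% at 20 to 50 kb, where the share in a site was highest. The part of GC content in these values was not tested.

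**Figure D2:**
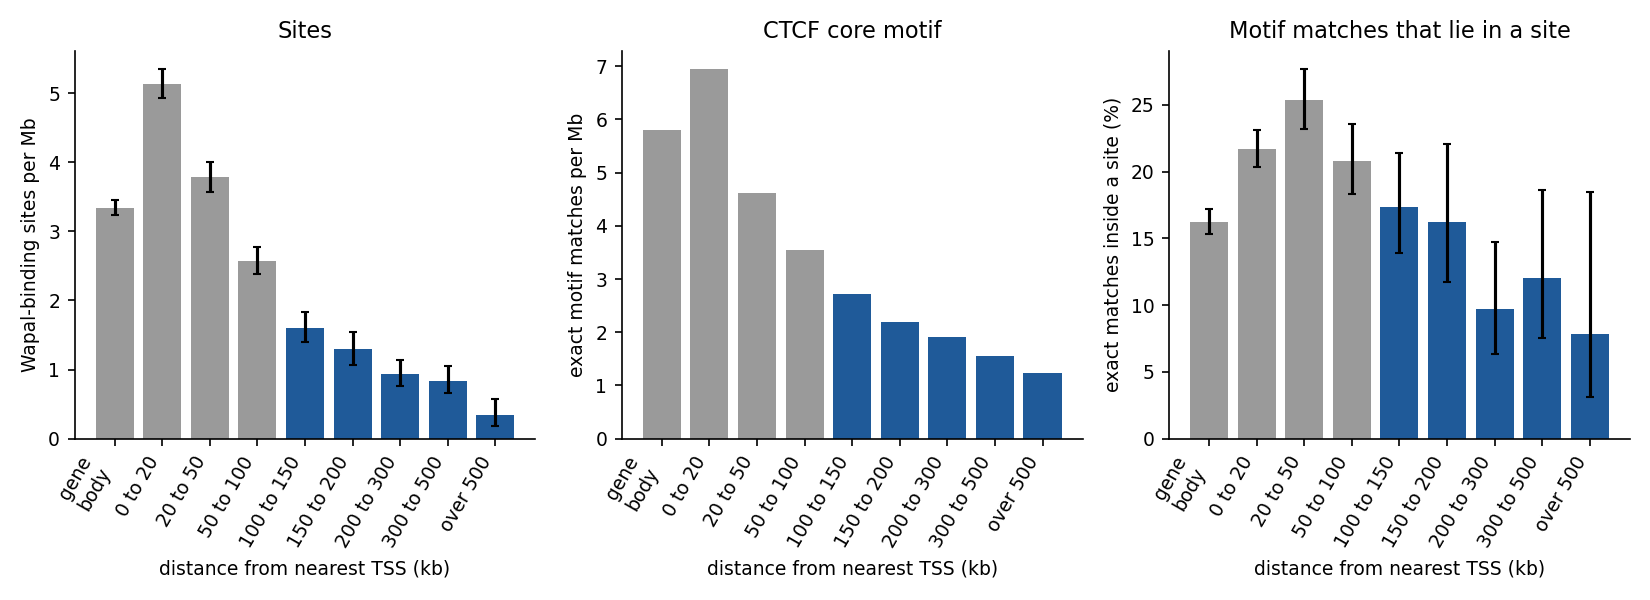
Wapal-binding sites per Mb, exact matches to the CTCF core motif per Mb, and the percentage of exact matches that lie inside a site, in gene bodies and in 8 classes of distance from the nearest TSS in kb outside them; bars for deserts are blue, and error bars are 95% exact Poisson (left) or Wilson (right) intervals. Sites fall from 5.14 per Mb within 20 kb of a TSS to 0.340 per Mb beyond 500 kb, and exact motif matches from 6.94 to 1.24 per Mb.

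Most desert sites held the CTCF core motif. It was found with at most 1 mismatch in 378 of 526 desert sites, or 71.9% (67.9 to 75.5%), and in 74.7% of the other sites (73.7 to 75.6%). In the regions of the same width 5 kb to either side it was found in 48 of 1052, or 4.56% (3.46 to 5.998%). The flanking regions of the other sites held it more often, in 10.1% (9.66 to 10.6%). Exact matches were present in 26.0% of desert sites (22.5 to 30.0%) and 28.4% of the others (27.4 to 29.4%), so that the share with the motif was close in both groups while the background around the desert sites was lower. By depth in the desert, the share with at most 1 mismatch was lowest at 200 to 300 kb from a TSS, at 64.2% (54.2 to 73.1%), and highest at 300 to 500 kb, at 77.8% (66.9 to 85.8%), and these intervals overlapped.

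**Figure D3:**
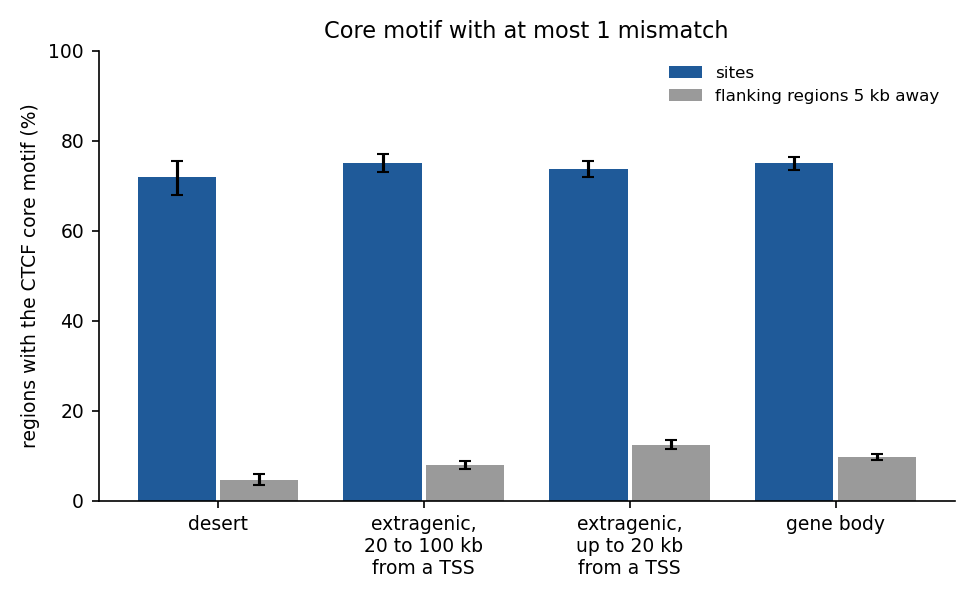
Percentage of regions that hold the core motif when 1 mismatch is allowed, at sites (blue) and in regions of the same width 5 kb to either side (grey), for desert sites and for 3 classes of other sites; error bars are 95% Wilson intervals. The motif is present in 71.9% of desert sites and 4.56% of their flanking regions.

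The motif lay near the middle of the desert sites. Its median distance from the region's centre was 39.5 bp (34 to 43, n = 378), and it was within 100 bp of the centre in 334 of the 378 sites with the motif, or 88.4% (84.7 to 91.2%). At the other sites this share was 78.7% (77.7 to 79.8%), in regions that were also wider. In the 127 desert sites whose best match had 2 mismatches, that match lay at a median of 40 bp from the centre (28 to 48). The match nearest the centre was used where a region held several equal ones. The motif was on the plus strand in 194 of the 378 desert sites, or 51.3%. Among desert sites whose best match had exactly 1 mismatch, the base that differed was most often the fifth of the core, in 79 of 241 sites, or 32.8% (27.2 to 38.9%), and it was the same position in 34.6% of such sites elsewhere.

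**Figure D4:**
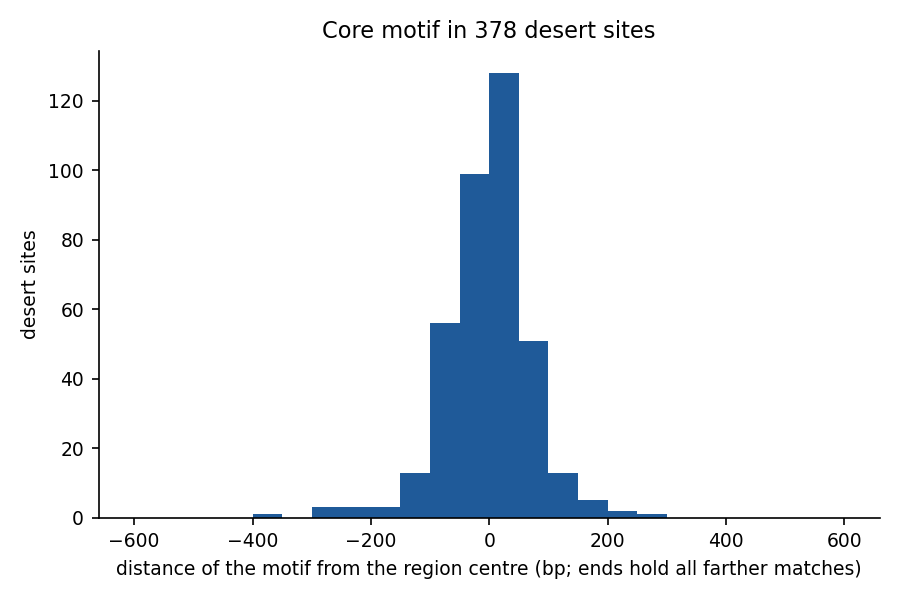
Number of desert sites by the signed distance in bp of the CTCF core motif (at most 1 mismatch) from the centre of the region, in bins of 50 bp. Of 378 sites, 334 have the motif within 100 bp of the centre.

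Median scores were somewhat lower at desert sites with 2 mismatches and with 3 or more. The median score was 84.1 for the 137 desert sites with an exact match (78.0 to 92.3), 83.4 for the 241 with 1 mismatch (77.4 to 90.2), 75.3 for the 127 with 2 mismatches (68.0 to 82.5) and 66.1 for the 21 with 3 or more (58.9 to 81.0). All 4 intervals overlapped. Over all sites outside deserts the medians were 86.6, 81.85, 76.7 and 70.9 in the same order. For those outside gene bodies at 20 to 100 kb from a TSS they were 87.8, 84.8, 77.8 and 86.9. The site of the second lowest score of all desert sites, 50.3 between Tmem26 and Rhobtb1 (chr10:68365235-68365989), held an exact match, whereas the site of the lowest, 50.1 between Crispld1 and Crisp4 (chr1:17968011-17968747), had 2 mismatches.

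The desert sites were grouped by the gap between neighbouring protein-coding genes in which they lay. Of 1439 such gaps with sequenced desert, 376 held a desert site, or 26.1% (23.9 to 28.5%). A single desert site was found in 271 gaps, 2 in 76, 3 in 20, 4 in 8 and 7 in 1 gap. In all, 522 desert sites had a protein-coding gene on either side, and 4 lay before the first such gene of a chromosome. Gaps with more desert held a site more often. The share was 10.6% of gaps with under 100 kb of desert (8.38 to 13.4%) and 52.7% of those with more than 1 Mb (43.5 to 61.8%). Per Mb of desert, however, the order was the opposite, with 3.18 sites in the former and 0.555 in the latter.

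Of the 8 gaps with 4 desert sites, the 4 with the largest summed score are described, after the gap with 7. The gap with most desert sites was 4283 kb long on chromosome 1, between Cntnap5b, which encodes a contactin-associated adhesion protein, and Cdh20, which encodes a cadherin. Its 7 sites had scores of 92.2, 167, 56.7, 81.0, 60.8, 76.0 and 84.1 in order from Cntnap5b. They lay in 3 close pairs and 1 single site. The first pair was 63.9 and 71.1 kb from Cntnap5b, the second 1261 and 1271 kb, and the third 3299 and 3314 kb, with the single site at 3501 kb. Of the 7, 2 held the core motif when 1 mismatch was allowed, namely the site of the highest score and the second of the third pair. These sequences are shown to compare a low-scoring exact match with a higher-scoring inexact one in 1 gap.
Score 167, chr1:102453674-102453703, plus strand, 1 mismatch: agtgtgtggCCACTAGGGGGAggcaggatg
Score 76.0, chr1:105696072-105696101, plus strand, no mismatch: ttaatttgtCCAGTAGATGGCaggattaga

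The gap between Gad1-ps and Csl on chromosome 10 was short, at 311 kb, and held 4 desert sites with scores of 127, 277, 132 and 82.5. The first and second carried exact motifs on the minus strand, and the last pair, 3.27 kb apart, had none with at most 1 mismatch. The 397 kb gap between Gpr158, which encodes a G protein-coupled receptor, and the myosin gene Myo3a on chromosome 2 also held 4 sites. They had scores of 201, 92.5, 108 and 173 and were 13.6 to 18.1 kb from their nearest neighbour. There the outer sites of the higher scores were the ones without the motif at 1 mismatch.

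The 4421 kb gap between Olfm4 and Pcdh17 on chromosome 14 was slightly longer than the Cntnap5b gap but held 4 sites, with scores of 265, 105, 90.9 and 56.9 at 193, 247, 823 and 1549 kb from Olfm4. None was in the part nearer to Pcdh17. The 712 kb gap between Rnf144b, which encodes a ubiquitin ligase, and 4931429P17Rik on chromosome 13 held sites of 139, 97.1, 98.1 and 134. Only the last of these carried the motif with at most 1 mismatch. The 5 gaps thus differed both in length and in whether their sites had the motif.

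**Figure D5:**
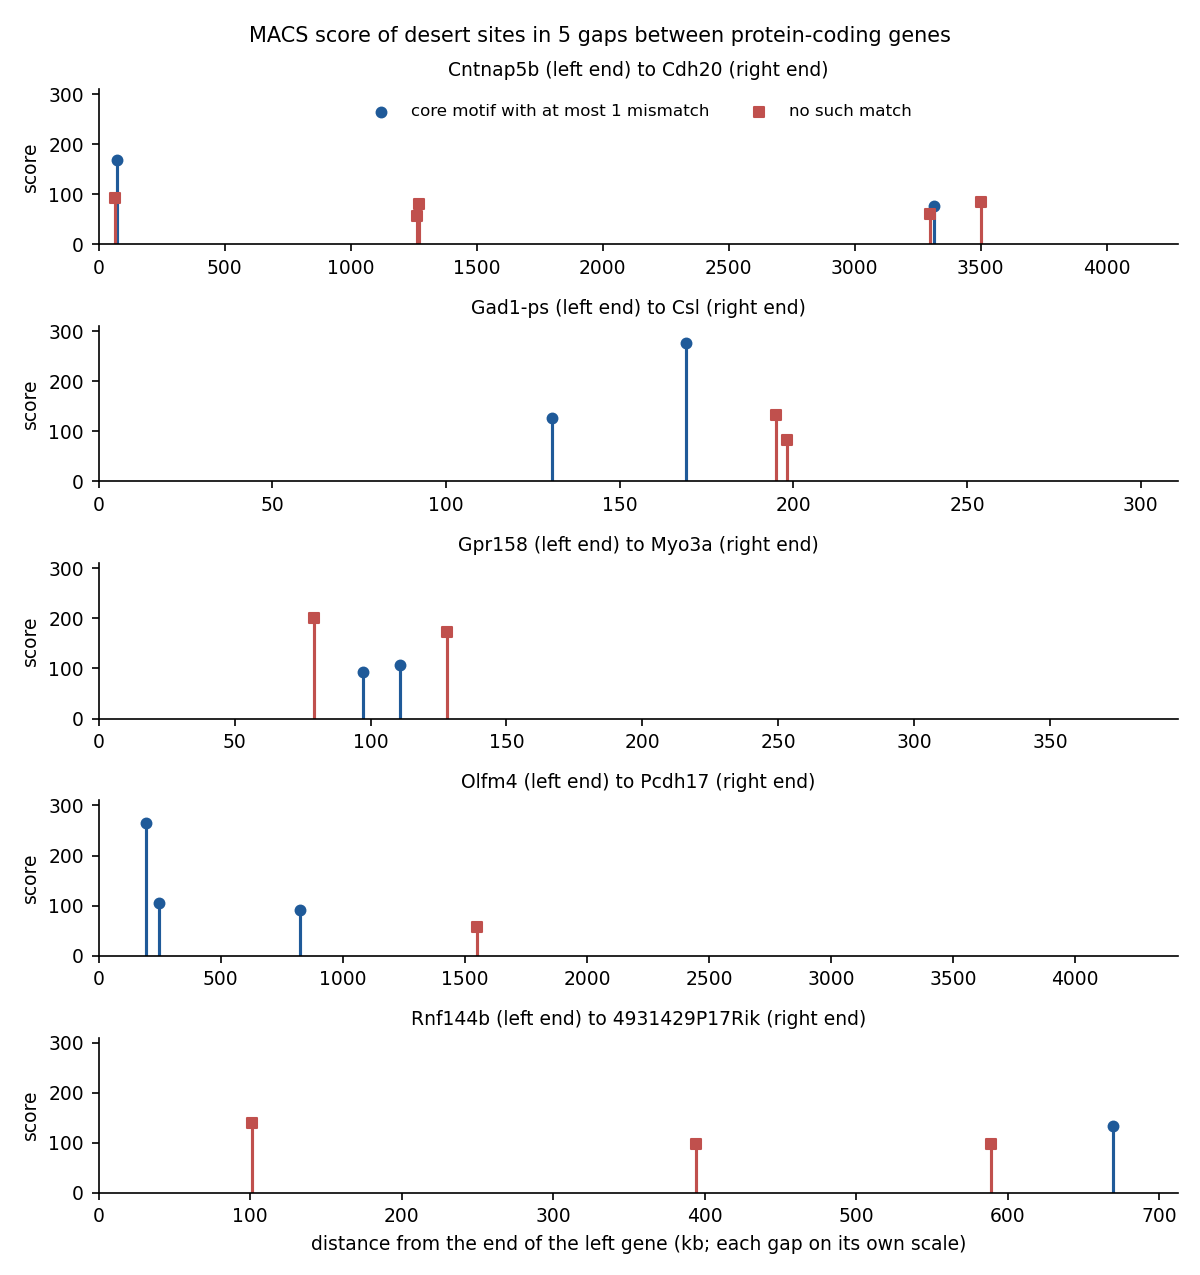
MACS score of each desert site against its distance in kb from the end of the left gene, in 5 gaps, the 1 with 7 desert sites and the 4 of the largest summed score among the 8 with 4; blue circles mark sites that hold the CTCF core (1 mismatch allowed) and red squares those without, and each gap has its own horizontal scale. The 7 sites between Cntnap5b and Cdh20 form 3 close pairs and a single site, and the 4 between Olfm4 and Pcdh17 lie in the part nearer to Olfm4.

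Gaps with much desert but no desert site were also found. Among gaps with none, the most sequenced desert was 3036 kb between D3Ertd751e and the protocadherin gene Pcdh10 on chromosome 3. Next came 3020 kb between Dsel and Cntnap5a on chromosome 1. These lengths are totals over a gap and need not be unbroken. The gap next to Pcdh10 held no site at all, whereas that next to Cntnap5a held 3 sites that were closer to genes.

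Desert sites stood farther from other sites. The nearest other site was at a median of 140 kb from a desert site (113 to 170 kb) and 71.2 kb from the others (68.7 to 74.4 kb). No other site lay within 500 kb of 68 desert sites, or 12.9% (10.3 to 16.1%), against 2.89% elsewhere. A minority were nevertheless close to a neighbour, with 51 desert sites, or 9.70% (7.45 to 12.5%), less than 10 kb from another site, and 12.5% elsewhere (11.8 to 13.3%). Of 147 pairs of neighbouring desert sites in the same gap, 73 had the motif with at most 1 mismatch at both sites. These motifs pointed towards each other in 14 pairs, or 19.2% (11.8 to 29.7%), away from each other in 27, or 37.0% (26.8 to 48.5%), and the same way in 32, or 43.8% (33.0 to 55.2%). For neighbouring sites outside deserts the shares were 26.5, 27.5 and 46.0%, all within the intervals above, but those pairs were neighbours on the same chromosome and not limited to 1 gap.

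The 5 sites farthest from a TSS were of ordinary score. The farthest (chr14:81245209-81245996, score 90.9) was 845 kb from a TSS and again lay between Olfm4 and Pcdh17, as did the third (chr14:81970886-81971613, score 56.9), at 813 kb. The second (chr1:144638598-144639485, score 98.1) was 815 kb from a TSS, between the potassium channel gene Kcnt2 and Cdc73, which encodes a subunit of the Paf complex. The fourth (chr7:101507937-101508580, score 109) was 812 kb away, between Gm9934 and Gm9966, and no other site was within 1130 kb of it. The fifth (chr15:21814761-21815505, score 64.1) was 664 kb away, between the cadherin genes Cdh12 and Cdh18. The motif was present with at most 1 mismatch in 4 of them, and these sequences are shown because no promoter was near.
Olfm4 and Pcdh17, chr14:81245542-81245571, plus strand, 1 mismatch: cttgttgctCCGCTAGGTGGCagaagagtt
Kcnt2 and Cdc73, chr1:144639069-144639098, minus strand, 1 mismatch: catgtgtggCCACTAGAGGTCgcaggtaga
Gm9934 and Gm9966, chr7:101508174-101508203, plus strand, 1 mismatch: taatttagaCCACCAGGTGTCagtagagat
Cdh12 and Cdh18, chr15:21815131-21815160, plus strand, no mismatch: ggttctccaCCACTAGATGGCagcagcaca

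At the limit of the definition, the 3 desert sites closest to a TSS were 100.019, 100.458 and 100.663 kb away. They lay between Rps6-ps2 and Sall1, which encodes a zinc finger transcription factor (score 53.3), between Atp6v1h and Oprk1 (score 272) and between Api5 and Lrrc4c, which encodes a netrin-G ligand (score 105). The 3 intergenic sites just outside the limit were 99.950, 99.939 and 99.648 kb from a TSS, with scores of 53.0, 76.8 and 77.4. They lay between Glt1d1 and Tmem132d, between Eif4e and Tspan5, and between Il7 and Stmn2.

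A distance from promoters did not always mean a distance from genes. The centre of 106 desert sites, or 20.2% (16.9 to 23.8%), was within 100 kb of the end of a gene body of any type, and that of 8 was within 10 kb. After the site near Skap2, the closest was 1.84 kb from the end of Nrp2, a receptor gene for semaphorins (score 153), and the next 3.59 kb from Slc35f1 (score 82.3). A pair 2.97 kb apart lay 4.14 and 7.11 kb from Sv2b, a gene of a synaptic vesicle protein (scores 61.2 and 69.2). Med13l, a gene of a Mediator subunit, ended 8.59 kb from a desert site with a score of 173. Skap2, Nrp2, Slc35f1, Sv2b and Med13l are all long genes that read towards the site, since a gene that begins this close would break the rule.

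The genes at either end of gaps with a desert site included 65 of adhesion or axon guidance families (cadherins, protocadherins, contactins, ephrins, semaphorins and the like) among 717, or 9.07% (7.18 to 11.4%). Among the 1713 genes found only at desert gaps without a desert site, 65 belonged to these families, or 3.79% (2.99 to 4.81%), and among all protein-coding genes 1.44% did. The gaps with a desert site were longer, with a median of 640 kb against 379 kb, and the part of length in this difference was not tested. The sites of the highest score in such gaps were the one 4227 kb from Pcdh17 and 193 kb from Olfm4 (265), the one 794 kb from Cadm1 (252), one 1380 kb from the atypical cadherin gene Fat4 (chr3:40290409-40291267, score 207) and one 2623 kb from the ephrin gene Efnb2 (chr8:5994617-5995191, score 206).

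Genes of developmental transcription factors made up 37 of the 717, or 5.16% (3.77 to 7.03%), against 4.26% at desert gaps without a desert site (3.40 to 5.32%) and 1.59% of all protein-coding genes. The top sites in their gaps included those 116 kb from Olig3 (chr10:18959660-18960397, score 175), 897 kb from Tbx3 (chr5:119223635-119224427, score 173) and 167 kb from Tcf7l2, the effector of Wnt signalling (chr19:56174794-56175613, score 171). The site in the gap of Tbx3, a factor of ESC self-renewal, was the one next to Med13l. The gap that follows Sox2, the pluripotency factor, was singled out after its values were seen. It held 3 desert sites, at 451, 830 and 922 kb from Sox2, with scores of 144, 118 and 166. The first held the motif with 1 mismatch and the second held an exact match. The best match in the third, the site of the highest score, had 3 mismatches.

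Genes of ion channels and neurotransmitter receptors made up 28 of the 717, or 3.91% (2.72 to 5.59%), against 4.44% at desert gaps without a desert site (3.56 to 5.52%) and 2.07% of all protein-coding genes. The top sites in their gaps were 79.2 kb from Gpr158 (score 201), 49.4 kb from Kcnt2 (chr1:142557722-142558404, score 194), 1495 kb from the glutamate receptor gene Grm7 (chr6:109100511-109101323, score 143) and 160.4 kb from the potassium channel gene Kcna5 (chr6:126321759-126322596, score 134). Chemosensory receptor genes, which are 6.75% of all protein-coding genes, made up 3 of the 717, or 0.418% (0.142 to 1.22%), and 1.05% at desert gaps without a desert site (0.666 to 1.65%). They were Vmn2r79, Olfr721-ps1 and Olfr1505, with top scores of 77.4, 70.9 and 52.7. Zinc finger genes made up 6 of the 717, or 0.837% (0.384 to 1.81%), against 1.11% (0.711 to 1.73%) and 1.79% of all protein-coding genes. The top sites in their gaps were 113 kb from Zfp706 (score 232), 157 kb from Zfp365 (104), 241 kb from Zfpm2 (87.8) and 632 kb from Zfp703 (86.8).

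The chromosomes differed in how many desert sites they held. Chromosome 1 had the most, with 64 in 47.0 Mb of desert, or 1.36 per Mb (1.05 to 1.74). The density was 1.57 per Mb on chromosome 10 (1.13 to 2.12) and 0.630 per Mb on chromosome 19 (0.204 to 1.47), which had 5 desert sites. The X chromosome had 2 desert sites in 12.1 Mb, or 0.165 per Mb (0.0199 to 0.595). Outside deserts the X chromosome was also low, with 1.05 sites per Mb, against 3.15 or more on each autosome.

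The BirA control gave the background. Of its 266 regions, 10 lay in deserts by the same rule, or 3.76% (2.05 to 6.78%), with scores from 50.8 to 114. The core motif was present with at most 1 mismatch in 2 of these 10. BirA regions had removed 6 regions of the FB Wapal list from deserts, where 532 would otherwise have been counted.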

How the data were processed

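Libraries of 2 FB Wapal clones, 1 BirA line and 1 input were sequenced by the authors. Per the methods and the submitters' processing notes, reads were aligned to mm9 with Bowtie, uniquely aligned reads were kept, and regions were identified against input with MACS 1.4.2. The values deposited are the MACS score of each region, which is not normalized between lists. The rule that joined the regions of the clones is not given in the sources used here, and no read counts were held, so the depth behind single regions is unknown.

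FB Wapal regions sharing at least 1 base with a BirA region were removed. Centres were placed against GENCODE release M1 on the same build. Gaps lay between neighbouring protein-coding gene bodies, some of which carry symbols ending in ps. The CTCF core motif was searched with at most 1 mismatch in sites and in regions of the same width 5 kb away. Gene lists were symbol patterns. Sites were named by rule: the 10 highest scores, the 5 gaps with most desert sites (ties by summed score), the 5 farthest from a TSS, 3 on either side of the limit, the 2 widest, the 2 lowest scores and the top 4 gaps per gene list. The desert sites and lists were chosen with earlier results of these data known. Some results that the rule names are not reported here. Shares have 95% Wilson intervals. Functions were tested on simulated data. Alternatives covered the removal of BirA regions, the score, merging, chromosomes, the definition of a desert and the motif. Python 3.11.15, numpy 2.4.6, pandas 2.3.3, scipy 1.17.1, pysam 0.24.0 and matplotlib 3.10.9 were used.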

Additional observations from a re-analysis of the deposited data

How the results depend on the processing

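Of 86 alternative values, 51 stayed within 1.5 times the count or within the 95% interval reported, and 35 did not. The number of desert sites was 1190 over 50 kb from a TSS, 181 over 200 kb, 963 with protein-coding genes alone and 182 with a score of at least 100. The share of sites in deserts was 14.3% over 50 kb, 2.17% over 200 kb, 11.6% with protein-coding genes alone and 5.05% when a site also had to be over 100 kb from every gene body, an alternative chosen after seeing the data. Sites per Mb of desert were 1.65, 0.791, 1.25 and 1.004 under the same 4 settings, and 0.394 with a score of at least 100. Gaps holding a desert site numbered 824 over 50 kb, 131 over 200 kb, 639 with protein-coding genes alone and 155 with a score of at least 100, and those holding 2 or more 252, 35, 216 and 21. The median score was 134 with a score of at least 100. The median width was 767 bp over 50 kb, 758 bp with protein-coding genes alone and 796.5 bp with a score of at least 100, and the GC content was 42.7% over 50 kb. These settings change which sites are counted by construction.

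The core motif was in 26.0% of desert sites with no mismatch and 96.0% with 2 mismatches allowed, and in 0.475% and 38.3% of the flanking regions. At 10 kb the flanking count was again 48 of 1052, although only 2 sides of sites held the motif at both distances. With exact matches only, 54.5% of 11 pairs pointed apart and 27.3% the same way. BirA regions in deserts numbered 19 over 50 kb, 5 over 200 kb and 26 with protein-coding genes alone.

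No paired analysis was possible because the clones are in 1 joined list, which also leaves no single clone to omit. The share of repeat-masked bases was not run, since the genome used has 0 soft-masked bases. The lists hold no read counts, so a desert position without a region cannot be told apart from one below detection.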
